A study of Mus musculus with 9 samples.

Results

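The CCAAT/enhancer binding protein (C/EBP) genes Cebpa, Cebpb and Cebpd were followed through adipocyte differentiation of 3T3-L1 cells, a mouse preadipocyte line, with and without chickpea extract. They were chosen by name, 3 of the 330 genes on the array, and each had 1 probe. The 4 chickpea cultures were confluent cells kept for 2, 4, 6 or 8 days in differentiation medium with 0.5% chickpea extract, named CP in the labels, which do not say how it was prepared. The 4 control cultures had the same medium without it, on the same days, and 1 culture was taken on day 0, before any inducer. In both media the cells received methylisobutylxanthine at 0.5 mM, dexamethasone at 10 µM and insulin at 5 µg/ml with 10% fetal bovine serum for 2 days. The schedule then gave insulin and serum alone for 6 days, which cultures taken before day 8 did not complete. Each medium and day had 1 array, so culture and array differences were not separated, and all cells came from 1 line grown under a hormone mixture rather than from tissue.

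C/EBP proteins are transcription factors that bind DNA as pairs through a basic region and a leucine zipper. In 3T3-L1 cells Cebpb and Cebpd are known as early genes of the programme. The xanthine, which blocks cAMP breakdown, is known to induce Cebpb, and the glucocorticoid dexamethasone to induce Cebpd. Their products are known to switch on Cebpa and Pparg, which then maintain each other and the genes of the mature fat cell. The Cebpb transcript gives a long activating and a short inhibitory protein, which a probe for the transcript does not tell apart.

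The 250 bases before the annotated start of Cebpa and of Cebpb (RefSeq, GRCm38.p6) are shown. These genes were the pair whose signal was at least 2-fold above day 0 on day 2 in both media under the main scaling. The Cebpa stretch is chr7:35119043-35119292 and the Cebpb stretch chr2:167688665-167688914, both on the plus strand. Cebpd lies on chromosome 16, and its stretch was not available for this report.
Cebpa: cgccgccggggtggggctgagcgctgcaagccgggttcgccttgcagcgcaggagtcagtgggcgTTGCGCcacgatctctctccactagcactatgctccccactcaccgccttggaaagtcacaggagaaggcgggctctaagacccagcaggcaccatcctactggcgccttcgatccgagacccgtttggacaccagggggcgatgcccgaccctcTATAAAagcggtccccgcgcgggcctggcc
Cebpb: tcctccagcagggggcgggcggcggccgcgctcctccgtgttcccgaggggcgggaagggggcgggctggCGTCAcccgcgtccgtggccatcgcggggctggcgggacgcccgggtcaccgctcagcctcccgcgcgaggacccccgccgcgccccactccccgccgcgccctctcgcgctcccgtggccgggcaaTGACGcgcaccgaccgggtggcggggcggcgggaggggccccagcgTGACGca
Capitals mark TGACG, the core of the cAMP response element, TTGCGC, the left part of the C/EBP palindrome TTGCGCAA, and the TATA box TATAAA, each searched on both strands, with no overlap between matches. These letters were chosen after the stretches had been read. Cebpb held TGACG 3 times, from base -180 on the minus strand and from bases -53 and -7 on the plus strand, counted from the annotated start. Of 32851 promoter windows of the same length, 17.8% held that motif in any number of copies, and the share with 3 copies was not counted. Cebpa held TTGCGC from base -185, as 5.34% of windows did, and TATAAA from base -30, as 12.4% did. Neither stretch held the full palindrome TTGCGCAA or TGACGTCA, which were present in 0.164% and 1.55% of windows, nor CCAAT (33.8%). A match describes the letters of the window and was not tested as a site.

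All 9 arrays lay on 1 slide with 12 wells. By the match of values described under processing, the control arrays and the chickpea day 2 array lay in the left column of wells and the chickpea arrays of days 4, 6 and 8 in the right column. Column and chickpea on these 3 days cannot be told apart. Median spot intensity ranged from 55 to 83 units on the chickpea arrays and from 47 to 168 units on the control arrays, day 0 included. A spot counted as above background at more than 10 units. Of the 10 adipocyte markers, 5, 5, 7 and 8 were above that limit on chickpea days 2, 4, 6 and 8, against 9, 10, 10 and 10 on the same days in control medium and 4 on day 0. Their summed signal, not scaled between arrays, was between 4123 and 8317 units on the chickpea arrays. It was between 4421 and 82706 units on the control arrays of days 2 to 8 and 2303 units on day 0. On day 2 it was 6509 units with chickpea against 4421 units in control medium. Resistin (Retn) was not above the limit on any chickpea array, although the labels call those cells adipocytes too. Fabp4, Lpl and Cd36 were above it on every chickpea array. Cd36 had 838, 389, 802 and 939 units on chickpea days 2, 4, 6 and 8, against 27, 1084, 1976 and 3390 units in control medium. In the chickpea fit given below, 9 of the 10 markers had a difference below 0 under the main scaling and 1, Cd36, above 0. Of the 6 preadipocyte markers, 4, 4, 6 and 6 were above the limit on chickpea days 2 to 8, against 4, 5, 6 and 6 in control medium and 6 on day 0. Their summed signal, also not scaled, was between 3158 and 4720 units on the chickpea arrays. It was between 6021 and 18298 units on the control arrays of days 2 to 8 and 20890 units on day 0. Most of it came from Dlk1, with 2059 to 3919 units on the chickpea arrays, 5457 to 15564 on those control arrays and 14940 on day 0. In the chickpea fit 4 of the 6 had a difference below 0 and 2 above 0, with a median of -0.20, and 1 passed. No macrophage or hepatocyte marker was above the limit on any array (1 and 3 were spotted), no muscle marker was spotted, and the endothelial marker Kdr was above it on 7 arrays at up to 20 units. The part of well position, signal level and cell state in the results below was not tested.

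Cebpb, the early activator, was highest on day 2 in both media after scaling. Its deposited intensity, scaled by the authors so that Gapdh averaged 10000, was 1363 on day 0. The chickpea cultures gave 4670, 1153, 778 and 659 on days 2, 4, 6 and 8, and the control cultures 1937, 1198, 939 and 831. On these values day 2 stood above every other day in each medium. In scanner units, before scaling, control medium had 2830, 2854, 2419 and 3057 on days 2, 4, 6 and 8, with 1227 on day 0. The day 2 peak in control medium therefore does not hold before scaling. Chickpea medium had 6293, 2263, 2336 and 1582 units on the same days. After quantile scaling, which gives all arrays the same distribution of values, the log2 levels in chickpea medium were 11.85, 10.79, 10.36 and 10.18, and those in control medium 11.63, 9.56, 9.21 and 9.27, with 9.71 on day 0. Day 2 was thus 4.39-fold above day 0 in chickpea medium and 3.78-fold above it in control medium. Quantile scaling gave the largest rise of the 5 scalings listed below. Over these the rise ran from log2 1.35 to 2.13 in chickpea medium and from 0.51 to 1.92 in control medium. On day 2, 17.2% of the 239 genes tested were at least 2-fold above day 0 in chickpea medium and 15.1% in control medium. These comparisons share the day 0 array. In bulk RNA, fewer cells of a type and less RNA per cell cannot be told apart.

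**Figure D1:**
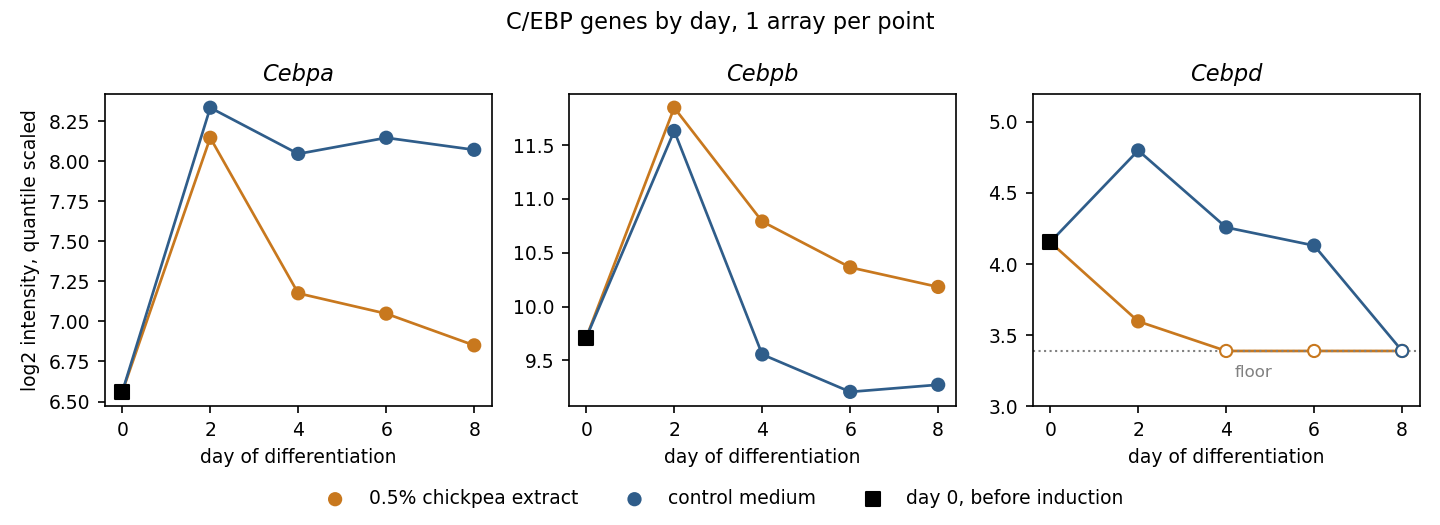
Quantile-scaled log2 intensity of Cebpa, Cebpb and Cebpd (y axes) by day of differentiation (x axes), 1 array per point, in chickpea medium (orange), control medium (blue) and on day 0 (black square). The dotted line in the Cebpd panel is the floor at log2 3.39, and open circles lie at it. Cebpb is highest on day 2 in both media, and Cebpa stays above 8 in control medium while it lies at 7.18 or lower in chickpea medium from day 4.

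The day 2 array gave the highest Cebpb value of days 2 to 8 in both media under each of 5 scalings (quantile, median, 75th percentile, control genes and the deposited values). Day 2 exceeded day 8 by 2.87-fold to 7.08-fold in chickpea medium and by 2.04-fold to 5.12-fold in control medium, depending on the scaling. A linear change with day over the 8 arrays of days 2 to 8, with medium as a term, was fitted with limma. Cebpb had a slope of log2 -0.32 ± 0.08 per day (SE; limma adjusted p = 0.0678), the fourth lowest of 239 genes. It did not pass the threshold of 0.05, and neither did any other gene, so the share called was 0% (61 genes had an unadjusted p under 0.05). With median scaling the Cebpb slope was -0.25 (adjusted p = 0.0492) and with 75th percentile scaling -0.25 (adjusted p = 0.0415), where 20 genes passed each. Without the day 2 arrays it was -0.11 (adjusted p = 0.330), so the slope rests on day 2.

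Cebpd, the partner of Cebpb in the early phase, gave a faint signal. It had 24 scanner units on day 0. In chickpea medium it had 14, 7, 15 and 4 units on days 2, 4, 6 and 8, and in control medium 30, 67, 80 and 28 units. The chickpea arrays of days 4 and 8 were not above the limit of 10 units. After scaling, the chickpea arrays of days 4, 6 and 8 and the control array of day 8 lay at the floor of log2 3.39, below which values have no order. Chickpea day 2 was at 3.60, control days 2, 4 and 6 at 4.80, 4.26 and 4.13, and day 0 at 4.15. In control medium day 2 was highest under 2 of the 5 scalings and day 6 under the other 3, so these arrays do not settle on which day Cebpd was highest. Its slope with day was -0.12 ± 0.05 (limma adjusted p = 0.146). It was -0.047 with a limit of 20 units, and -0.031 in chickpea medium alone against -0.22 in control medium alone.

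Cebpa, the late regulator that sustains the fat cell state, was above day 0 on day 2 in both media. Afterwards it stayed high in control medium, whereas the chickpea arrays of days 4 to 8 lay closer to day 0 on the quantile scale and below it on the deposited values. Its deposited intensity was 159 on day 0. The chickpea cultures gave 416, 118, 84.1 and 81.6 on days 2, 4, 6 and 8, against 230, 349, 375 and 281 in the control cultures. The media overlapped over the whole course, since chickpea day 2 was the highest array of all on this scale, but every chickpea array of days 4 to 8 was below every control array of those days. On the quantile scale the log2 levels were 8.15, 7.18, 7.05 and 6.85 in chickpea medium and 8.33, 8.05, 8.15 and 8.07 in control medium, with 6.56 on day 0. Day 2 was 3.00-fold above day 0 in chickpea medium and 3.42-fold above it in control medium.

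**Figure D2:**
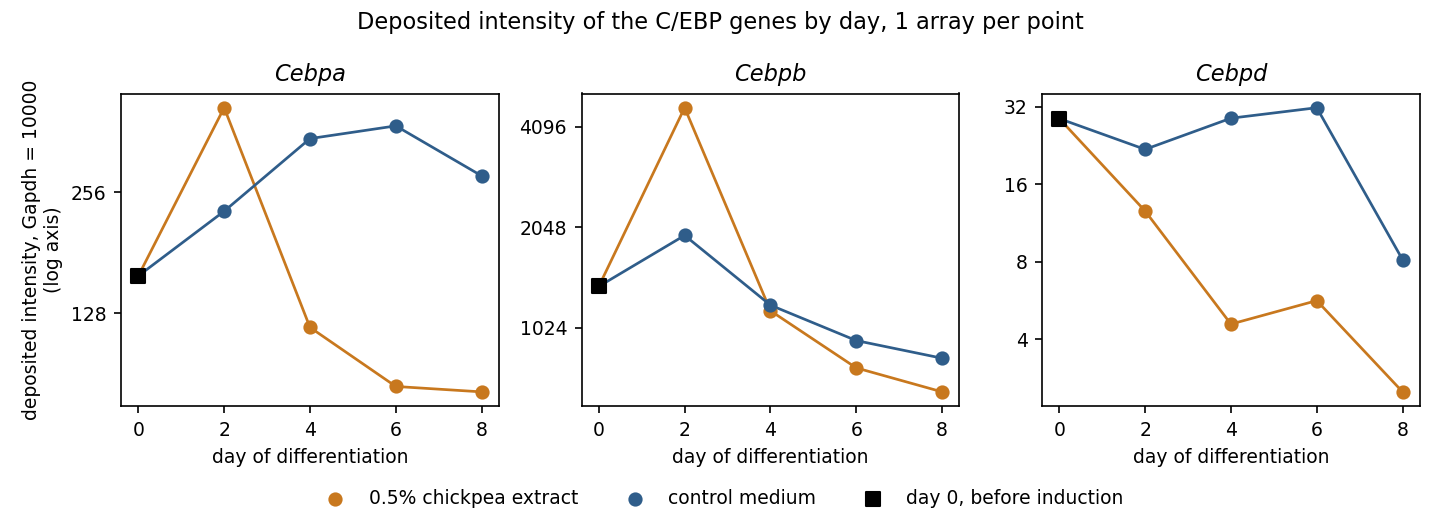
Deposited intensity of the 3 genes on a log axis (y axes, Gapdh spots averaging 10000) by day (x axes), 1 array per point, in chickpea medium (orange), control medium (blue) and on day 0 (black square). Chickpea day 2 is the highest array for Cebpa (416) and Cebpb (4670), while Cebpa in control medium is highest on day 6 (375).

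The day of the highest Cebpa value in control medium depended on the scaling, being day 2 under 2 of the 5 scalings and day 6 under 3. In chickpea medium it was day 2 under all 5. Cebpa was above day 0 on day 2 under all 5 scalings in both media (log2 0.97 to 1.59 in chickpea medium and 0.54 to 1.77 in control medium). No array lay between day 0 and day 2, so whether Cebpb or Cebpa rose first could not be seen. The order of an early Cebpb and a late Cebpa was seen as persistence in control medium. There Cebpa was above day 0 on days 4, 6 and 8 under all 5 scalings, by log2 0.83 to 1.94. Cebpb was above day 0 on those days under 2 or 3 of the 5. In chickpea medium on those days both genes were above day 0 under 3 of the 5 scalings. The slope of Cebpa with day was -0.12 ± 0.05 (limma adjusted p = 0.191). It was -0.037 without day 2, and -0.20 in chickpea medium alone against -0.034 in control medium alone.

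The Cebpa and Cebpb spots lie in the same block of the array, so any linear scaling cancels in their ratio within an array. Relative to day 0 the log2 Cebpa-to-Cebpb ratio of the deposited values was -0.38, -0.18, -0.10 and 0.09 on days 2, 4, 6 and 8 in chickpea medium, against 0.03, 1.32, 1.78 and 1.54 in control medium. In control medium the ratio on day 2 was thus close to that of day 0, and on days 4 to 8 it was 2.50-fold to 3.43-fold higher. In chickpea medium it stayed between 0.766-fold and 1.06-fold of day 0 throughout. The same-day difference, chickpea minus control, averaged -1.31 ± 0.63 on the log2 scale (SD over 4 days) and was below 0 on 4 of 4 days. On the quantile scale, which is not linear, it averaged -1.72. The ratio shows that the genes changed unequally, not which of them changed, and it was given no test.

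**Figure D3:**
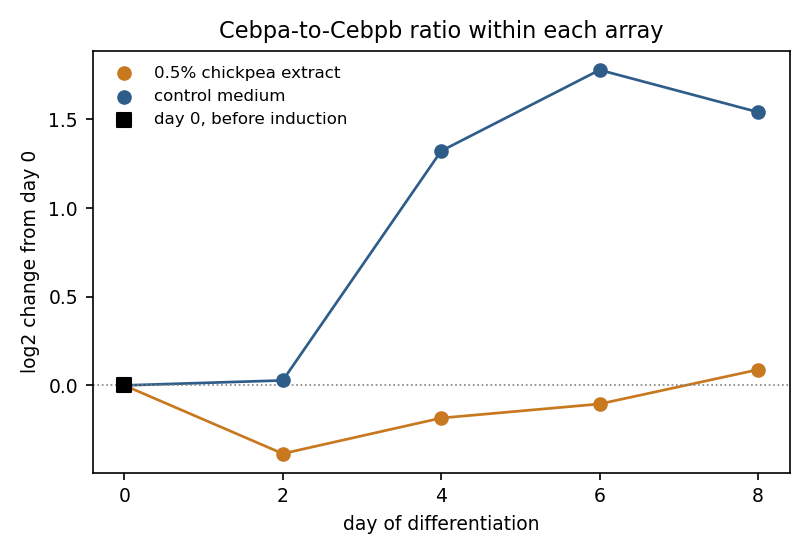
Log2 change from day 0 of the Cebpa-to-Cebpb ratio of deposited intensity within each array (y axis) by day (x axis), in chickpea medium (orange) and control medium (blue), 1 array per point. The control points of days 4 to 8 lie between 1.32 and 1.78, and the chickpea points between -0.38 and 0.09.

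The chickpea effect, the mean same-day difference over days 2 to 8, was fitted over the 8 arrays with day as a block. The SE and p of this fit rest on how that difference varied between days, since no medium and day had a replicate culture. None of the 3 genes passed, while 15.1% of the 239 genes did, 8.79% higher and 6.28% lower with chickpea (95 had an unadjusted p under 0.05 with limma). For Cebpa the same-day differences were -0.19, -0.87, -1.10 and -1.22 on days 2, 4, 6 and 8, a mean of -0.84 ± 0.23 (SE; limma adjusted p = 0.0635). It was lower in chickpea medium on 4 of 4 days, and at least 2-fold lower on days 6 and 8, as were 13.8% and 13% of genes. Cebpa lay below 0 under all 5 scalings (-0.84 to -1.51), although on day 2 alone the deposited values put chickpea higher, by 0.86. Without day 2, the only day on which both media shared a column of wells, the difference was -1.06 ± 0.16 and passed (limma adjusted p = 0.0196), as did 71 of 236 genes in that fit.

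For Cebpb the same-day differences were 0.22, 1.23, 1.16 and 0.91, a mean of 0.88 ± 0.23 (limma adjusted p = 0.0620), above 0 on 4 of 4 days. It was at least 2-fold higher on days 4 and 6, as were 22.6% and 19.2% of genes. This direction depended on the scaling. The mean was 0.42 with 75th percentile scaling, 0.22 with median scaling, 0.15 on the deposited values and -0.19 with control gene scaling. On day 2 chickpea was higher under all 5 scalings, by 0.12 to 1.27, while on days 4, 6 and 8 it was higher under 3 and lower under 2. Without day 2 the mean was 1.10 ± 0.16 and passed on the quantile scale (limma adjusted p = 0.0172), where the median of all genes was 0.28.

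For Cebpd the mean was -0.70 ± 0.24 (limma adjusted p = 0.0981). Chickpea was lower by 1.20 on day 2, a drop of at least 2-fold that 18.4% of genes had, and at least 1.83-fold lower on day 4 and 1.67-fold lower on day 6, where it lay at the floor. On day 8 both media lay at the floor after scaling, so no difference was left on this scale and the mean is not exact. Before scaling that day had 4 units with chickpea, not above the limit, and 28 units in control medium. Cebpd was below 0 under all 5 scalings (-0.70 to -1.28). With a limit of 20 units for background the mean was -0.17, so its size rests on where that limit is set. Without day 8 it was -0.94 (limma adjusted p = 0.0498), in a fit that called 47 of 235 genes.

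**Figure D4:**
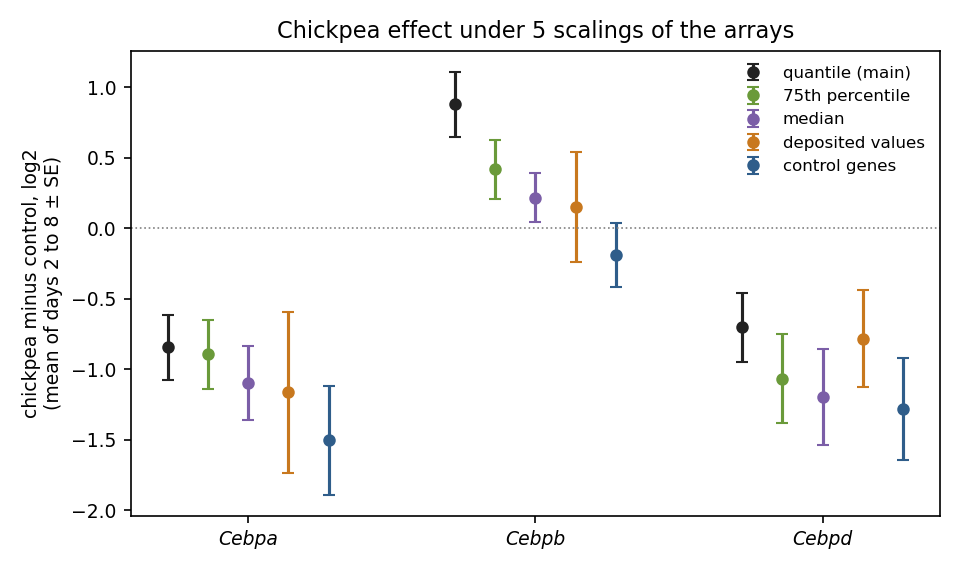
Chickpea minus control difference on the log2 scale (y axis; mean of days 2 to 8, bars show ± SE of the limma fit) for Cebpa, Cebpb and Cebpd (x axis) under 5 scalings of the arrays. Cebpa and Cebpd lie below 0 under each scaling, while Cebpb runs from 0.88 with quantile scaling to -0.19 with control gene scaling.

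None of the 3 genes passed the test of a linear change of the chickpea difference with day, as 3.35% of the 239 genes did (75 at an unadjusted p under 0.05, limma). The change per day was -0.17 ± 0.06 for Cebpa (limma adjusted p = 0.157), 0.10 ± 0.09 for Cebpb (0.433) and 0.19 ± 0.06 for Cebpd (0.146). The Cebpd value follows the control arrays, since chickpea values lay at the floor from day 4.

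Of 12 listed adipocyte genes whose promoters or enhancers Cebpa is known to bind or act on, 10 were on the array and 9 were tested. Of these 9, Pparg, Fabp4, Slc2a4, Adipoq, Retn and Lpl were also among the 10 adipocyte markers. With chickpea, 3 of the 9 passed downward and 1 upward, as did 6.28% and 8.79% of all 239 genes. The median difference of the 9 was -1.60, against 0.21 over all genes. Of the 10 adipocyte markers 6 passed downward, or 3 on the deposited values, and their median was -2.75 with quantile scaling. Adipoq (adiponectin) fell, with a fitted difference of -5.22 ± 0.91 (limma adjusted p = 0.0288), as did Retn at -5.03 ± 0.82 (0.0256) and Pparg, the partner regulator of Cebpa, at -1.60 ± 0.25 (0.0248). Adipoq lay at the floor on 2 of the 4 chickpea arrays and Retn on all 4, so the size of their differences depends on the floor. These 3 calls held under 4 of the 5 scalings and were lost on the deposited values, where adjusted p was 0.0558 for Adipoq and Retn and 0.193 for Pparg. Insr, the insulin receptor, rose by 1.33 ± 0.24 (adjusted p = 0.0288) with quantile scaling alone. Slc2a4, the insulin-responsive glucose transporter, was at a fitted -2.36, with all 4 chickpea arrays at the floor, and the fatty acid binding protein gene Fabp4 at -1.69, and neither passed. Pparg had log2 levels of 6.91, 6.36, 6.30 and 6.55 in chickpea medium against 7.75, 8.03, 8.38 and 8.37 in control medium, so on the quantile scale each chickpea array lay below every control array of days 2 to 8. In scanner units Pparg had 295 on chickpea day 2 against 289 on control day 2, so that order does not hold before scaling. Agt, the angiotensinogen gene, was the 1 of the 9 whose chickpea difference changed with day, by 0.82 ± 0.05 per day (limma adjusted p = 0.00918), a call made under 2 of the 5 scalings. With quantile scaling 3.35% of all 239 genes passed that test. In the limma fit of the change with day none of the 9 passed with quantile scaling, while Irs1, an insulin receptor substrate gene, passed upward under 2 of the 5 scalings. Their slopes were all above 0 on the quantile scale (median 0.23, against -0.01 over all genes), though those of Pparg and Insr were below 0 on the deposited values. The slopes of Cebpa, Cebpb and Cebpd, which pool both media, were below 0 under all 5 scalings. For Cebpa in control medium the direction depended on the scaling. Day 2 minus day 8 was log2 -0.29 there on the deposited values and -0.48 with control gene scaling. Under the other scalings it was between 0.05 and 0.26.

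**Figure D5:**
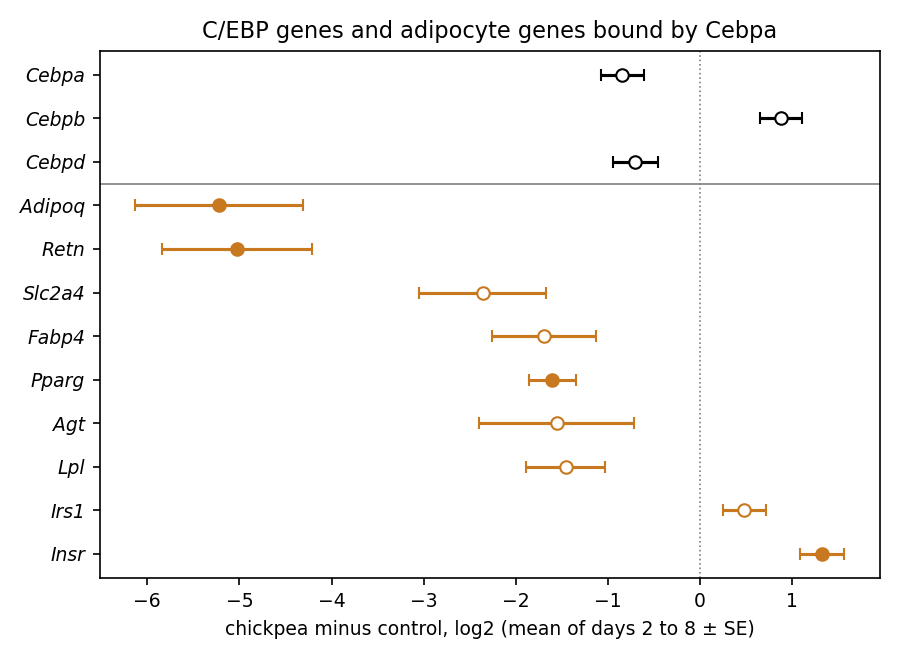
Chickpea minus control difference on the log2 scale (x axis; mean of days 2 to 8, bars show ± SE) for the 3 C/EBP genes (black) and 9 adipocyte genes bound by Cebpa (orange). Filled points passed the limma test at an adjusted p under 0.05: Adipoq, Retn and Pparg below 0 and Insr above 0.

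Of 16 listed genes for signals upstream of Cebpb and Cebpd, 8 were on the array and tested. With chickpea 2 passed upward, as did 8.79% of all 239 genes. Both passed with quantile scaling alone: Gsk3b, a kinase that phosphorylates the Cebpa and Cebpb proteins, at 0.96 ± 0.20 (limma adjusted p = 0.0363), and the cytokine receptor kinase Jak2 at 0.91 ± 0.20 (0.0427). The list median was 0.60, against 0.21 over all genes. Under control gene scaling those medians were -0.14 and -0.38. Creb1, the cAMP response factor, was at 1.09 (adjusted p = 0.0609), Stat3 at -0.76 (0.147, but past the test downward with control gene scaling) and the glucocorticoid receptor gene Nr3c1 at 0.22 (0.555).

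Among 11 acute phase and immune genes known to be bound by Cebpb or Cebpd, 6 were on the array and 5 were tested. With chickpea 2 of the 5 passed downward, as did 6.28% of all 239 genes. C3, the central complement component, fell, at -4.17 ± 0.35 (limma adjusted p = 0.00670), under all 5 scalings, and Hp (haptoglobin), at the floor on all 4 chickpea arrays, fell, at a fitted -4.37 ± 0.64 (0.0182), under 4 of the 5. The median of the 5 was 0.05, with Il6 and Crp at the floor on 8 arrays each, and Ccl2, a chemokine, was at 0.39 without passing. That median was -0.17 with control gene scaling and, over 4 tested members, between -2.22 and -2.05 under the other 3 scalings. Of 12 listed inhibitors of adipogenesis, 9 were on the array and 8 were tested. Dlk1, the preadipocyte factor, was the 1 that passed with quantile scaling, downward as 6.28% of all genes did. It was at -1.24 ± 0.18 (0.0173), a call lost on the deposited values, and Ctnnb1 (beta-catenin) was at 1.45 (0.0620). Socs3, a suppressor of cytokine signalling, was at -0.51 and did not pass with quantile scaling, but passed downward under 2 of the 5 scalings. The median of the 8 inhibitors was 0.07, and below 0 under the other 4 scalings. Of 6 genes on a list named for further C/EBP family members and dimer partners, only Trib3 was on the array, and it is neither. Trib3, a pseudokinase induced by stress, had a chickpea difference that changed with day, by -1.06 ± 0.06 per day (limma adjusted p = 0.00918), a call lost on the deposited values. The share of all 239 genes that passed that test was 3.35%.

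For each C/EBP gene the genes with the most similar pattern were ranked by Pearson's r of log2 levels over the 9 arrays, among 215 other genes above the limit on at least 6 arrays. All values share the same arrays and scaling. Nearest to Cebpa were Pnpla2, the adipose triglyceride lipase (r = 0.84), Pparg (0.84), the pyruvate carboxylase gene Pcx (0.81) and the acyl-CoA synthetase gene Acsl1 (0.79), and on the deposited values these were 0.85, 0.93, 0.78 and 0.80. Most opposed to Cebpa were Araf (-0.88) and Acsl5 (-0.85), but on the deposited values both were above 0, at 0.27 and 0.24. Nearest to Cebpb was Rps18 (0.93), a ribosomal protein gene spotted as a control gene, followed by the insulin receptor substrate gene Irs2 (0.89), the nuclear receptor gene Ppard (0.88) and the tumour necrosis factor receptor gene Tnfrsf1b (0.87). On the deposited values these were 0.84, 0.92, 0.80 and 0.91. Rps18 stood at 13.09, 12.67, 12.67 and 12.25 in chickpea medium, against 12.67, 11.97, 11.42 and 11.63 in control medium and 11.85 on day 0. Most opposed to Cebpb was Insig1 (-0.97), and on the deposited values this was -0.35. Among the genes nearest to Cebpd were the transcription factor gene Stat3 (0.86), Smarcd2 (0.86) and the vitamin D receptor gene Vdr (0.83), while Hmox1, heme oxygenase, was the most opposed (-0.92), followed by Me1 (-0.88). On the deposited values r with Cebpd, which lay at the floor on 4 of the 9 arrays after quantile scaling, was 0.65 for Stat3, 0.75 for Smarcd2, 0.58 for Vdr, -0.67 for Hmox1 and -0.22 for Me1. Stat3 had its highest level on control day 2, at 9.56, the array on which Cebpd was also highest under quantile scaling. Among the members themselves r was 0.16 for Cebpa and Cebpb, 0.41 for Cebpa and Cebpd and 0.09 for Cebpb and Cebpd.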

How the data were processed

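RNA of 9 cultures was labelled with 1 dye and hybridised to 1 array each. The arrays were scanned at 532 nm, per the file headers, which name GenePix Pro 6.1.0.4, and the deposited scanner table gives the intensity of each spot, the median pixel value minus local background. The sources used here do not say how the authors made the deposited value table. Its values equal that intensity plus 2 or 3 units, scaled so that the Gapdh spots of each block average 10000. All 354 entries matched 1 spot within a relative tolerance of 1e-06 and were named, and each sample was tied to a well, only through this match.

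The deposited intensity was taken to log2 and averaged over spots, and each gene was read from its brightest probe. After quantile scaling a floor of log2 3.39 was set: per array, the lowest value of a gene above 10 units was taken, and the floor is the highest of these. That limit was passed by 3 of 369 empty and negative control spots. Of 247 genes above the limit on 2 arrays, 239 varied and were tested with limma 3.58.1 (R 4.3.3), two-sided, with Benjamini-Hochberg adjustment over all of them. The fits had 3 residual degrees of freedom for the chickpea effect, 2 for its change with day and 5 for the change with day. The number of arrays limits the precision. Samples were paired by day, from the labels. The fits were tested on simulated data. Median, 75th percentile and control gene scaling used genes above the limit on all arrays.

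The members, lists and tests were chosen with earlier results of these data known. Genes named beside the 3 members are up to 4 members of a list, those past the test and then the largest values, and per member the 4 most similar and 2 most opposed genes, of which some are not reported here. Slc2a4, Fabp4, Cd36, Lpl, Agt, Irs1, Nr3c1, Il6 and Crp were added after their values were seen. The lists are the 5 named in the report and the markers of adipocytes, preadipocytes, macrophages, muscle, hepatocytes and endothelium.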

Additional observations from a re-analysis of the deposited data

How the results depend on the processing

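The 3 C/EBP genes kept their direction and did not pass the tests under most settings. For the chickpea effect, Cebpa (-1.06) and Cebpb (1.10) passed without day 2 and Cebpd (-0.94) without day 8, and Cebpb turned to -0.19 with control gene scaling. Of all genes, 36 passed, against 7 on the deposited values, 71 without day 2, 0 without day 4, 4 without day 6, 47 without day 8 and 73 without day as a block. Where none passed, 48 genes had a limma p under 0.05 before adjustment. The split of 21 higher and 15 lower became 7 and 23 (median scaling), 13 and 22 (75th percentile) and 1 and 34 (control genes), while the median of all genes moved between 0.21 and -0.38. Without the day block Cebpa, Cebpb and Cebpd had adjusted p = 0.0530, 0.281 and 0.0957 (limma).

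For the change of that effect with day, Cebpb turned to -0.073 (control gene scaling), -0.25 (deposited values) and -0.082 without day 2. The count of 8 genes became 3 under median, 1 under control gene scaling and 0 for the deposited values (54 with a limma p under 0.05 before adjustment). It was 27 without day 2, 0 without day 4 or day 6 and 33 without day 8, settings added after the data were seen, and without days 4 and 6 the limma p was under 0.05 before adjustment for 64 and 40 genes. For the change with day, Cebpb passed with median (-0.25) and 75th percentile (-0.25) scaling, and Cebpa turned to 0.028 with day 0 added. The count of 0 became 20 under median scaling, 20 under 75th percentile scaling, 3 under control gene scaling, 1 without day 2, 15 with day 0, 7 in control medium alone and 13 in chickpea medium alone. The causes were not tested. Without a filter on dim genes the same 239 genes were tested. Differences from day 0 moved by more than the residual SD of the gene in 53 comparisons with another scaling and by less in 43. With Spearman's rho at least 3 of the 4 most similar genes were the same for each member.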
